A study of Mus musculus with 6 samples.

Results

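The genes described here encode 10 surface or secreted ligands through which leukaemia cells meet T cells, natural killer (NK) cells and phagocytes: Cd274, Pdcd1lg2, Cd80, Cd86, Cd47, Cd200, Pvr, Lgals9, Tnfsf9 and Icosl. They were chosen by name as immune checkpoint and costimulatory ligands, and all 10 were among the 23337 genes of the count table. RNA had been sequenced from mouse leukaemia initiating cells (LICs) after sorting, the cells that can start a leukaemia again, in 3 libraries labelled adult (replicates 1, 2 and 4) and 3 labelled neonatal (replicates 4, 7 and 8). Both groups are labelled as coming from haematopoietic stem and progenitor cells, and age is the only label that differs between them. Strain, genotype, driver of the leukaemia, treatment and exact age are not given in the labels used here, and neither is whether each library came from its own animal. The p-values are therefore set against the spread of these samples alone, and that spread may be technical.

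A T cell responds fully when its antigen receptor and a costimulatory receptor are engaged together, and ligands on the other cell supply or block the costimulation. CD80 and CD86 bind CD28, which activates, and CTLA-4, which inhibits. PD-L1 and PD-L2 (Cd274 and Pdcd1lg2) inhibit through PD-1. ICOS ligand (Icosl) and 4-1BB ligand (Tnfsf9) costimulate T cells through ICOS and 4-1BB. PVR, also called CD155, binds the activating receptor DNAM-1 and the inhibitory receptors TIGIT and CD96 on NK and T cells. Galectin-9 (Lgals9) binds TIM-3, among other partners. CD47 binds SIRPα on phagocytes and protects a cell from being engulfed, and CD200 restrains myeloid cells through its receptor. Acute myeloid leukaemias are known to carry CD47 at high levels.

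Of the 6 libraries, 5 held 60113466 to 66132051 counts, and neonatal replicate 4 held 3932833, so that the others had 16.2 times as many on average. Levels are given as CPM, counts scaled to TMM-adjusted library sizes. In neonatal replicate 4 a single count stood for 0.299 CPM, and a gene with 0 counts there could have been at up to 0.897 CPM (3 counts, counting error only). In the other 5 libraries a single count stood for at most 0.0168 CPM. By Pearson's r of log2 CPM over 13272 genes, neonatal replicate 4 was only slightly closer to neonatal replicate 7 (0.880) than to the adult libraries (0.857 to 0.875). Its r with neonatal replicate 8 (0.865) lay within that adult range, while neonatal replicates 7 and 8 had r = 0.954 with each other. Xist, the RNA of the silenced X chromosome, was at 51.7 to 186 CPM in the neonatal and at most 0.919 CPM in the adult libraries, while the Y-linked gene Ddx3y was at 98.8 to 154 CPM in the adult libraries and had 1 count in all neonatal libraries together. Sex and age group therefore cannot be told apart. All 8 progenitor markers had counts, 5 with positive and 3 with negative log2 fold changes and none called on 6 libraries. Without neonatal replicate 4, edgeR called Flt3 and Kit higher in neonatal LICs (adjusted p = 0.0348 and 0.0361), where 5.98% of all genes were called. The most abundant on average were Mpo, at 1097 to 10368 CPM in the adult and 61.0 to 1980 CPM in the neonatal libraries, and Myb, at 813 to 1400 and 683 to 910 CPM. Flt3 had the largest log2 fold change of the 8 (6.07 ± 0.87 on 6 libraries, SE, edgeR adjusted p = 0.133). It stood at 4.58 to 19.4 CPM in the adult and 256 to 1231 CPM in the neonatal libraries. Kit stood at 50.1 to 85.8 and 23.6 to 264 CPM and Cd34 at 8.16 to 105 and 396 to 662 CPM. T cell markers were at or near 0 (3 of 11 without counts, Lck highest at 1.67 CPM). Of 10 NK cell markers 4 had no counts, Ncr1 among them, but Nkg7 was at 44.3 to 112 CPM in the adult and 35.9 to 270 CPM in the neonatal libraries, and Klrk1 reached 18.5 CPM in neonatal replicate 4. Of 9 B cell markers 4 had no counts, Ms4a1 and Pax5 among them, but Cd79b was at 28.3 to 68.5 CPM in the adult and 70.7 to 146 CPM in the neonatal libraries. The most abundant markers of the megakaryocyte and endothelial lists were Itga2b (at most 2.14 CPM in the adult and 44.3 CPM in the neonatal libraries) and Pecam1 (22.0 to 63.8 and 64.0 to 96.5 CPM), and Cdh5 and Kdr were at 0 in all.

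Cd47 and Lgals9 were far above the other ligand genes in both groups, and the place of Tnfsf9 among the other genes differed between adult and neonatal LICs. Per kilobase of exon, which allows levels of different genes to be compared, Cd47 averaged 683 CPM per kb in adult and 827 CPM per kb in neonatal libraries, and Lgals9 150 and 162 CPM per kb. Icosl (3.95 and 8.40), Pvr (3.40 and 4.29) and Cd274 (2.36 and 1.46 CPM per kb) followed at much lower levels. Cd86 (0.838 and 0.0233), Cd80 (0.644 and 0.0816) and Pdcd1lg2 (0.0600 and 0.0674 CPM per kb) were lower on average in both groups. Cd47 and then Lgals9 led in every one of the 6 libraries. Icosl, Pvr and Cd274 exchanged places between adult libraries, so their order there is not beyond the spread of the samples. In all neonatal libraries Icosl was above Pvr and Pvr above Cd274. In replicate 4 this rested on 21, 15 and 13 counts, too few to fix the order there. Tnfsf9 averaged 0.0903 CPM per kb in adult libraries, below Cd86 and Cd80, and 3.002 CPM per kb in neonatal libraries, between Cd274 and Pvr. Its place varied between neonatal libraries. It was above Icosl and Pvr in replicate 4, on 10 counts, and just below Cd274 in replicate 7. Cd200 had 1 count in 6 libraries.

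**Figure D1:**
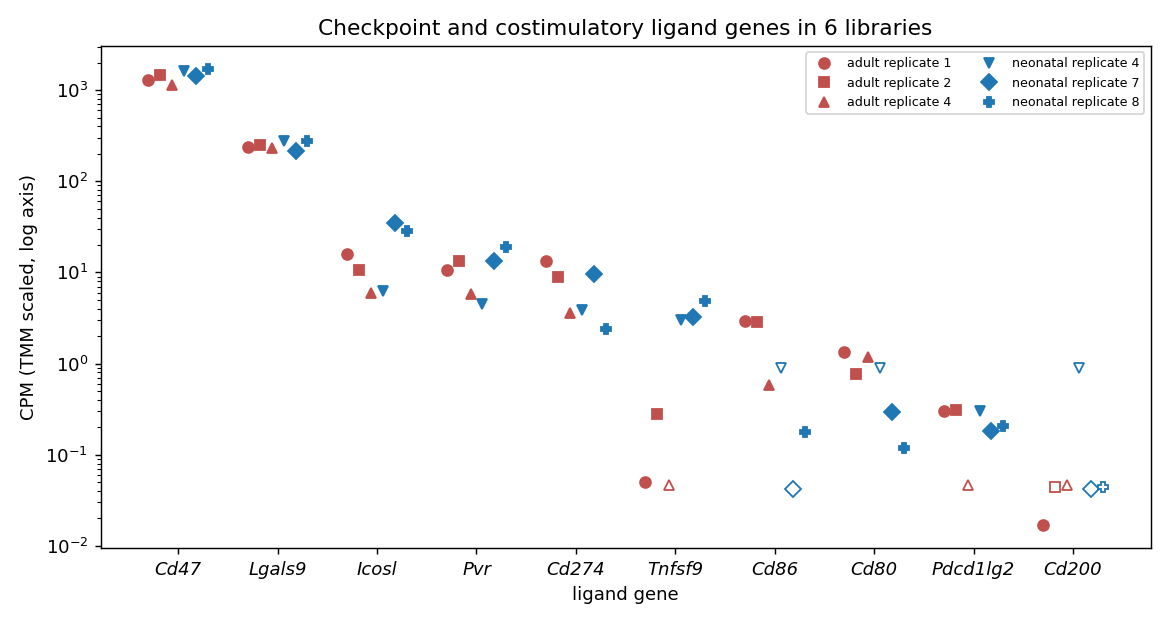
Level of each ligand gene in each library, in TMM-scaled CPM on a log axis, with genes ordered by mean level per kilobase; red symbols are adult and blue symbols neonatal libraries, and open symbols mark 0 counts drawn at the level of 3 counts. Cd47 lies between 1152 and 1715 CPM and Lgals9 between 212 and 279 CPM in all 6 libraries, while Tnfsf9 is at 2.99 to 4.86 CPM in the neonatal and at most 0.283 CPM in the adult libraries.

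Neonatal LICs were compared with adult LICs by edgeR's quasi-likelihood test on all genes. None of the 9 ligand genes that passed the filter on low counts was called at an adjusted p below 0.05, in a comparison that called 0.0527% of 13272 genes. At an unadjusted p below 0.05 there were 3 ligand genes, Tnfsf9, Cd86 and Cd80, of 9, beside 11.9% of all genes tested. Those 3 were also the ones whose CPM did not overlap between the groups, 1 above and 2 below the adult libraries, and 19.6% of all genes tested did not overlap. Of the 9 log2 fold changes 6 were positive, with a median of 0.11, and 53.5% of all genes tested were positive, with a median of 0.05. DESeq2 called Tnfsf9 and Cd86 (5.75% of its genes), limma voom called none (0.0527%) and limma voom with library quality weights called Tnfsf9 alone (7.96%). With neonatal replicate 4 left out, edgeR again called none of 9, where 5.98% of 13856 genes passed, and 4 ligand genes (Icosl in addition) had an unadjusted p below 0.05, as had 29.5% of all genes. DESeq2 without that library called Tnfsf9, Icosl and Cd86, and 25.0% of all genes.

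**Figure D2:**
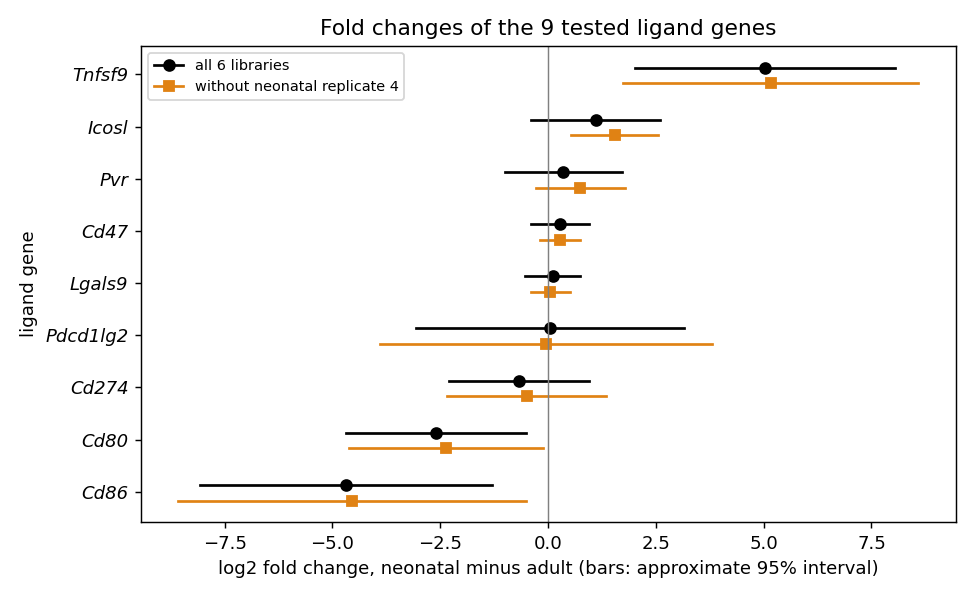
Log2 fold change of the 9 tested ligand genes, neonatal minus adult, from edgeR with all 6 libraries (black circles) and without neonatal replicate 4 (orange squares); bars are approximate 95% intervals for single genes. Intervals of Tnfsf9, Cd80 and Cd86 lie on one side of 0 in both fits, that of Icosl only without neonatal replicate 4, and none of these genes passed after adjustment over all genes.

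Cd47, the signal read by phagocytes, was the most abundant ligand gene and among the most abundant genes of the cells, above 99.2% to 99.8% of the genes in each library by level per kilobase. It maps to chromosome 16, 49855654 to 49911683, on mouse build mm10. It stood at 1297, 1476 and 1152 CPM across adult replicates 1, 2 and 4 and at 1604, 1432 and 1715 CPM across neonatal replicates 4, 7 and 8. The groups overlapped, since neonatal replicate 7 lay below adult replicate 2. Its log2 fold change was 0.28 ± 0.29 (SE, edgeR adjusted p = 0.793), with an approximate 95% interval of -0.40 to 0.95. A difference of 1 log2 unit in either direction therefore lies outside this interval, which is narrower than all but that of Lgals9, and the gene had 5366 counts even in the shallow library.

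Lgals9, which encodes a galectin that is secreted or held at the surface, was the other abundant gene (chromosome 11, 78962979 to 78984924). It stood at 237, 249.5 and 229 CPM in the adult libraries and at 279.2, 212.3 and 279.0 CPM across neonatal replicates 4, 7 and 8. The 3 adult values lay within 1.09-fold of each other and inside the neonatal range. Its log2 fold change was 0.11 ± 0.27 (SE, edgeR adjusted p = 0.927), with an interval of -0.53 to 0.74. The level of Cd47 per kilobase was 4.17 to 5.59 times that of Lgals9 in every library, shallow or deep.

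The stretches upstream of 4 ligand genes are printed to set the 2 abundant genes beside 1 of intermediate level (Icosl) and 1 of the low genes (Cd80). They are the 250 bases before the annotated start from RefSeq (GRCm38.p6, the assembly of mm10), read 5′ to 3′ on the gene's strand. RefSeq's table held 7 of the 10 ligand genes. Capitals mark matches, on either strand, to 5 motifs searched in the 300 bases from 250 before to 50 after the start: the interferon regulatory factor (IRF) element GAAANNGAAA, the STAT element TTCNNNGAA, the E-box CACGTG, the PU.1 site GAGGAAGT and the NF-kB consensus.
Cd47, chr16:49855404-49855653, plus strand: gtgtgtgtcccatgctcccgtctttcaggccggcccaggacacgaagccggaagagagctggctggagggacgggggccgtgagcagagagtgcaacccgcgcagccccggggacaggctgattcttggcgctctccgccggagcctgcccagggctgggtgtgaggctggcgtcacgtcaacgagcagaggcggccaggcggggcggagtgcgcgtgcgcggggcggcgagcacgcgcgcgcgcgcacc
Lgals9, chr11:78984925-78985174, minus strand: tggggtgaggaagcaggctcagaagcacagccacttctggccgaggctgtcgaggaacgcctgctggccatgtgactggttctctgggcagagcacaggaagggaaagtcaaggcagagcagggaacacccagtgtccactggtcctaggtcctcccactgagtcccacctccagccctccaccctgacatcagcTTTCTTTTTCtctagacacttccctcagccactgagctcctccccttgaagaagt
Icosl, chr10:78069118-78069367, plus strand: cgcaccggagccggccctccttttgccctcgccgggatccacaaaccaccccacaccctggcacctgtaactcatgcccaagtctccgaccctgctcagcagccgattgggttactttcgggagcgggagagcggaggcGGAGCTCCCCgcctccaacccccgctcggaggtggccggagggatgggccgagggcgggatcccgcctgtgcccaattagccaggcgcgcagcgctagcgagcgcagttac
Cd80, chr16:38458683-38458932, plus strand: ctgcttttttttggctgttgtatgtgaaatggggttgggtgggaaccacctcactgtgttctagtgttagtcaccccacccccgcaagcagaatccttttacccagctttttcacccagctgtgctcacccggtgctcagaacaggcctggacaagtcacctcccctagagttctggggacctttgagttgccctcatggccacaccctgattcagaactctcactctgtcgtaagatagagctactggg

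The Cd47 window was rich in G and C (74% of 300 bases, with 35 CpG pairs), as was that of Icosl (68%, 26 CpG pairs), and those of Lgals9 (58%, 4 CpG pairs) and Cd80 (49.7%, 3 CpG pairs) had few CpG pairs. Lgals9 alone among the 7 genes matched the IRF element, 55 to 46 bases before the start and again 16 to 25 bases after it, and 3.44% of 32851 mouse promoter windows of the same length hold that element. Icosl matched NF-kB 111 to 102 bases before the start, as did Pdcd1lg2 244 to 235 bases before it, and 8.46% of windows do so. The windows of Cd47 and Cd80 held none of the 5 motifs, which says only that these letters are not there. The STAT element, the E-box and the PU.1 site occur in 8.30%, 7.15% and 3.20% of windows and were found in none of the 7 genes.

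Tnfsf9, the ligand of 4-1BB, was higher in every neonatal library but did not pass the test (chromosome 17, 57105385 to 57107757). It had 3, 19 and 0 counts in adult replicates 1, 2 and 4, or 0.0503, 0.283 and 0 CPM. Neonatal replicates 4, 7 and 8 had 10, 228 and 328 counts, or 2.99, 3.23 and 4.86 CPM. The groups did not overlap, and the 95% Poisson interval of the 10 counts in the shallow library, 1.43 to 5.50 CPM, also lay above the highest adult value. The adult mean was 0.111 ± 0.151 CPM (SD, n = 3) and the neonatal mean 3.69 ± 1.02 CPM (SD, n = 3), 33.3-fold apart. The log2 fold change was 5.03 ± 1.30 (SE, edgeR adjusted p = 0.182), and the gene thus did not pass on 6 libraries. It was 5.16 ± 1.43 (SE, edgeR adjusted p = 0.0754) without neonatal replicate 4. Across 17 alternatives with edgeR, limma or DESeq2 the direction was kept in 17, the adjusted p lay between 4.3e-04 and 0.452, and 3 passed the threshold. Of the 22 adult counts 19 came from replicate 2, and without that library the log2 fold change was 7.11.

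Reads of Tnfsf9 were not counted by strand, and a transcript on the other strand, Gm11110, covers 192 exon bases of the gene in GENCODE (release M21). In the count table the 2 genes share no exon base. Gm11110 had 10, 10 and 0 counts in the adult libraries and 1, 75 and 219 counts in neonatal replicates 4, 7 and 8, so it too was higher in the deep neonatal libraries (3.92 ± 1.37 on the log2 scale, SE, edgeR adjusted p = 0.319). In the shared stretch the reads of both cannot be told apart. Tnfrsf9, the gene of the receptor 4-1BB, had 0 counts in the adult libraries and 1, 39 and 8 counts in the neonatal libraries, too few for the test.

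Icosl, the ligand of ICOS on activated and helper T cells, was higher in the 2 deep neonatal libraries but not in the shallow one (chromosome 10, 78069368 to 78079525). It stood at 15.9, 10.7 and 5.95 CPM across adult replicates 1, 2 and 4 and at 6.28, 34.6 and 28.3 CPM across neonatal replicates 4, 7 and 8. Neonatal replicate 4, with 21 counts and a 95% Poisson interval of 3.89 to 9.60 CPM, fell within the adult range and below the other 2 neonatal libraries, so the groups overlapped. The log2 fold change was 1.10 ± 0.65 (SE, edgeR adjusted p = 0.565), and 1.55 ± 0.42 (SE, edgeR adjusted p = 0.0733) without that library, where the means were 2.90-fold apart. DESeq2 without neonatal replicate 4 called it (adjusted p = 0.0076), and the adjusted p over 17 alternatives ran from 0.0076 to 0.864. Icos, the gene of its receptor, was at 0.235, 0 and 0 CPM in the adult and 0.299, 0.765 and 0.415 CPM in the neonatal libraries.

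Cd80 and Cd86, the pair that binds CD28 and CTLA-4, were both lower in neonatal LICs without passing the test. Cd80 (chromosome 16, 38458933 to 38486932) had 80, 51 and 76 counts in the adult libraries, or 1.34, 0.759 and 1.18 CPM. Neonatal replicates 4, 7 and 8 had 0, 21 and 8 counts, or 0, 0.297 and 0.119 CPM. The 2 deep neonatal libraries lay below all adult libraries, and the 0 of replicate 4 allowed up to 0.897 CPM, which is within the adult range. In the fit this gave -2.61 ± 0.90 on the log2 scale (SE, edgeR adjusted p = 0.310), and -2.37 ± 0.94 (SE, edgeR adjusted p = 0.153) without that library.

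Cd86, on the same chromosome (36603869 to 36666077), had 176, 192 and 37 counts in adult replicates 1, 2 and 4, or 2.95, 2.86 and 0.577 CPM. All 12 neonatal counts came from replicate 8 (0.178 CPM), and replicates 4 and 7 had none, which allowed up to 0.897 and 0.0425 CPM. The adult libraries differed 5.11-fold among themselves, and the lowest of them, replicate 4, was above both deep neonatal libraries. The fitted log2 fold change was -4.68 ± 1.46 (SE, edgeR adjusted p = 0.262), and without neonatal replicate 4 it was -4.54 ± 1.68 (SE, edgeR adjusted p = 0.135). Leaving out neonatal replicate 8 left no neonatal count, and the fitted value of -9.82 is then no bound. DESeq2 called Cd86 with and without neonatal replicate 4 (adjusted p = 0.0289 and 0.0149), and over 15 alternatives the adjusted p ran from 0.0149 to 0.536.

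CD80 and CD86 are carried by macrophages and dendritic cells. Most tested genes of the macrophage and neutrophil marker lists also had negative log2 fold changes. The 12 macrophage markers summed to 163 to 716 CPM in the adult and 87.3 to 292 CPM in the neonatal libraries, with Vcam1 the highest in adult replicates 1 and 2 (426 and 528 CPM). Of the 10 tested, 8 had a negative log2 fold change and none passed. C1qa, C1qb, C1qc, Mertk and Cd5l, the 5 whose groups did not overlap and were lower in neonatal libraries, named after their values were seen, summed to 18.3, 7.26 and 7.65 CPM in the adult and 0.598, 0.127 and 1.60 CPM in the neonatal libraries. Each of these 5 was low, at most 6.38 CPM in any library, so their sum does not stand for the whole list. In neonatal replicate 4 C1qb had 2 counts and C1qa, C1qc, Mertk and Cd5l had 0. A count of 0 there allowed up to 0.897 CPM, above the lowest adult value of C1qa (0.819), Mertk (0.452) and Cd5l (0.417 CPM). Of the more abundant markers, Vcam1 had a log2 fold change of -2.97 ± 0.92 and Emr1 of -0.25 ± 0.47 (SE, edgeR). Emr1 had 67.8, 122 and 62.7 CPM in adult replicates 1, 2 and 4. Neonatal replicates 4, 7 and 8 had 36.5, 113 and 61.8 CPM of it. The 2 tested markers with positive log2 fold changes were Cd163 and Csf1r. Cd163 was at 2.40 to 6.45 CPM in the adult and 7.47 to 12.1 CPM in the neonatal libraries. Csf1r was at 21.1 to 54.2 and 15.5 to 78.1 CPM. The 8 neutrophil markers found summed to 1756 to 14311 CPM in the adult and 13.9 to 155 CPM in the neonatal libraries, with Camp the highest in adult replicate 2 (5388 CPM). In the adult libraries most of this sum came from Camp, Ngp, S100a8 and S100a9. None of the 8 was called on 6 libraries. Without neonatal replicate 4, edgeR called S100a8 alone of them lower (adjusted p = 0.0437), where 5.98% of all genes were called. All 8 had negative log2 fold changes, and 5 did not overlap between the groups. Of all 13272 genes tested 19.6% did not overlap, and 1589 of these genes lay below the adult libraries. Cxcr2 (-0.09) and Mmp8 (-0.31) overlapped and were highest of all 6 libraries in neonatal replicate 4, at 42.4 and 20.6 CPM. Dendritic cell markers other than Flt3, which progenitors also express, summed to 3.40 to 5.79 CPM in the adult and 1.79 to 5.43 CPM in the neonatal libraries. Fscn1 and Ccl22 were at 0 in all. The part of macrophages, dendritic cells or neutrophils in the Cd80 and Cd86 values was not tested. In bulk RNA, fewer cells of a type and less RNA per cell cannot be told apart.

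**Figure D3:**
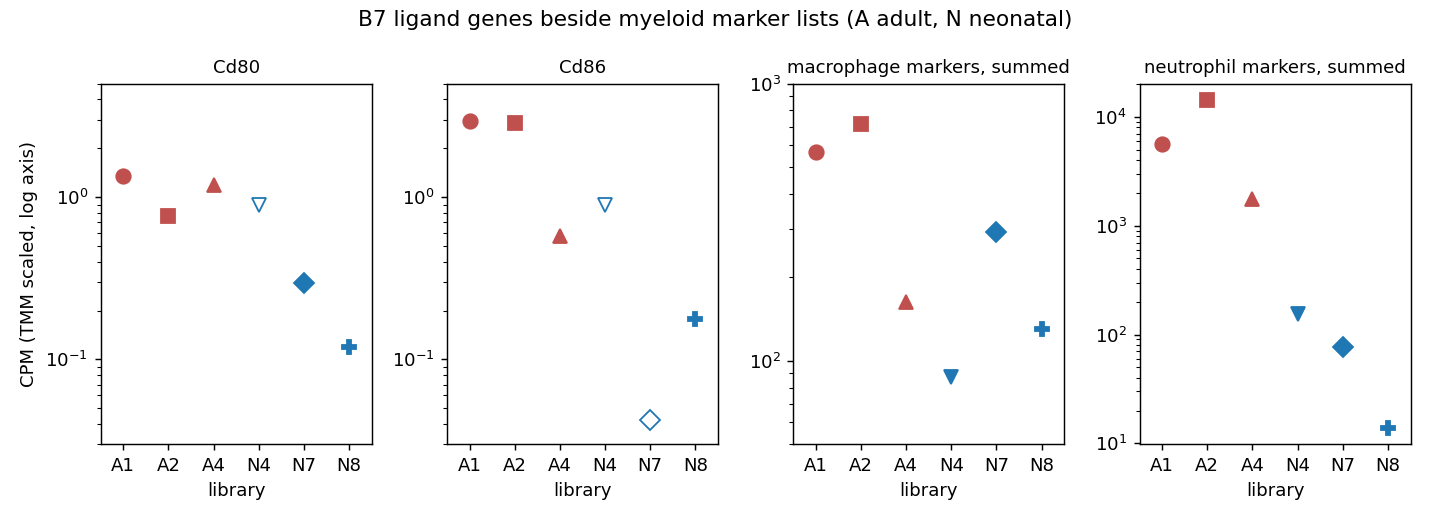
CPM of Cd80 and Cd86 and the summed CPM of the macrophage and neutrophil marker lists in each library, on log axes that differ between panels; A is adult (red), N neonatal (blue), the digit is the replicate, and open symbols are 0 counts drawn at the level of 3 counts. Cd86 and the summed neutrophil markers are lower in neonatal replicates 7 and 8 than in every adult library. The macrophage sum of neonatal replicate 7 (292 CPM) lies above that of adult replicate 4 (163 CPM). Dendritic cell markers are not drawn, and without Flt3 their sums overlapped between the groups (3.40 to 5.79 CPM in adult, 1.79 to 5.43 CPM in neonatal libraries).

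Cd274, the gene of PD-L1, varied more within each group than between them (chromosome 19, 29367438 to 29388094). It stood at 13.3, 8.89 and 3.55 CPM across adult replicates 1, 2 and 4 and at 3.89, 9.66 and 2.42 CPM across neonatal replicates 4, 7 and 8. The highest adult library was at 3.74 times the lowest, and neonatal replicates 7 and 8 were about as far apart. For this gene the log2 fold change was -0.67 ± 0.70 (SE, edgeR adjusted p = 0.787), with an interval of -2.29 to 0.95 that leaves differences of more than 1 log2 unit possible. An antisense transcript covers 511 of its exon bases in GENCODE, and without strand those reads cannot be told apart.

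Pdcd1lg2, the gene of PD-L2 and the neighbour of Cd274 on the same chromosome (29410919 to 29472927), was near the limit of detection. It had 18, 21 and 0 counts in the adult libraries and 1, 13 and 14 counts in the neonatal libraries, at most 0.313 CPM. The estimate of 0.05 ± 1.34 on the log2 scale (SE, edgeR adjusted p = 0.994) had an interval of -3.06 to 3.16, so that no difference was detectable at this depth. Per kilobase, Cd274 exceeded it 10.9 to 49.2-fold in the 5 libraries where Pdcd1lg2 had counts.

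Pvr, the ligand of DNAM-1 and TIGIT, did not differ detectably (chromosome 7, 19903578 to 19921143). It stood at 10.5, 13.2 and 5.75 CPM in the adult libraries and at 4.48, 13.5 and 19.2 CPM across neonatal replicates 4, 7 and 8. The 2 deep neonatal libraries lay above all adult ones and the shallow one, with 15 counts, below them. Its fitted log2 fold change was 0.36 ± 0.59 (SE, edgeR adjusted p = 0.871), and 0.75 ± 0.43 (SE, edgeR adjusted p = 0.291) without the shallow library. Without neonatal replicate 8 it turned to -0.09.

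Cd200, which restrains macrophages and is a known surface protein of some leukaemias, had 1 count in adult replicate 1 and none elsewhere (chromosome 16, 45382135 to 45409053). The 0 counts allowed up to 0.0468 CPM in the other deep libraries and 0.897 CPM in neonatal replicate 4. Cd200r1, the gene of its receptor, was at 7.61, 13.2 and 2.01 CPM in the adult and 11.7, 5.41 and 10.8 CPM in the neonatal libraries.

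The partners of these ligands and related genes were read from the same fit in 6 lists with 73 genes, of which 72 were in the table and 51 were tested. None of the 51 was called on 6 libraries, and 7 had an unadjusted p below 0.05, beside 11.9% of all genes tested. Without neonatal replicate 4, 2 of 53 were called, both higher in neonatal LICs, and 5.98% of all genes were called. These were Sirpa, the gene of the CD47 receptor, and Cmtm6, whose protein keeps PD-L1 at the cell surface. Sirpa stood at 138, 166 and 102 CPM in the adult and 55.3, 276 and 332 CPM across neonatal replicates 4, 7 and 8 (log2 fold change without neonatal replicate 4 of 1.17 ± 0.24, SE, edgeR adjusted p = 0.0469). Cmtm6 stood at 153, 167 and 132 CPM in the adult and 73.8, 267 and 274 CPM in the neonatal libraries (0.86 ± 0.17, SE, edgeR adjusted p = 0.0466). Both were lowest of all 6 libraries in neonatal replicate 4, the reverse of the other neonatal libraries.

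**Figure D4:**
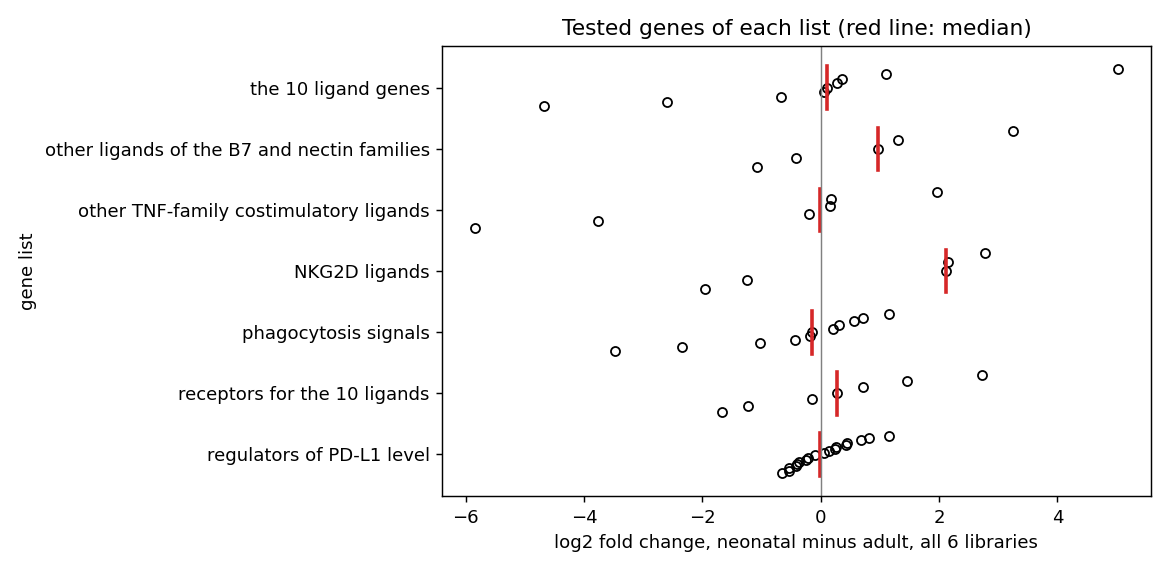
Log2 fold change, neonatal minus adult over all 6 libraries, of each tested gene (open circles) in the 10 ligand genes and the 6 related lists, with the median of each list as a red line. Medians lie between -0.15 and 2.12, members of most lists fall on both sides of 0, and no gene shown passed the test.

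Among other ligands of the B7 and nectin families, 5 of 11 were tested and 3 were positive (median 0.96). Pvrl2, which encodes nectin-2 and shares the receptors DNAM-1 and TIGIT with PVR, stood at 8.75, 8.37 and 3.77 CPM in the adult and 4.78, 18.3 and 27.9 CPM in the neonatal libraries, the same order of deep and shallow neonatal libraries as Pvr. Btnl2, a butyrophilin-like inhibitor of T cells, was at 0.101, 0.253 and 0 CPM in the adult and 1.20, 1.52 and 0.726 CPM in the neonatal libraries. The gene of VISTA, listed as 4632428N05Rik, was an abundant inhibitory ligand gene in both groups, at 83.6, 146 and 79.9 CPM in the adult and 27.8, 96.2 and 106 CPM in the neonatal libraries. Cd276 and Vtcn1, the genes of B7-H3 and B7-H4, were at most 0.193 CPM and at 0.

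Of 13 other genes listed with the TNF-family ligands 6 were tested, 3 in each direction (median -0.02). That list also held Cd40, which encodes a receptor and not a ligand and was among the positive genes (1.97). Tnfsf13b, which encodes the B cell survival factor BAFF, stood at 5.13, 5.51 and 7.29 CPM in the adult libraries and had 0, 0 and 15 counts in neonatal replicates 4, 7 and 8 (log2 fold change -5.85 ± 1.29, SE, edgeR adjusted p = 0.151). Tnfsf13, which encodes the related factor APRIL, stood at 1.78, 1.01 and 2.18 CPM against 0, 0.227 and 0.0444 CPM (-3.76 ± 1.004, SE, edgeR adjusted p = 0.195). Both lay below the adult libraries in every neonatal library, opposite in direction to Tnfsf9. DESeq2 called both lower with and without neonatal replicate 4, where it called 5.75% and 25.0% of all genes. Limma voom with quality weights also called both lower, and 7.96% of all genes. The costimulators Tnfsf4, Tnfsf18 and Cd70 had no counts, and Cd40 was at most 0.489 CPM.

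The ligands of NKG2D, an activating receptor of NK cells, numbered 8 in the table, of which 5 were tested, 3 positive and 2 negative (median 2.12). Ulbp1 was the most abundant of them, at 25.9, 16.9 and 21.9 CPM in the adult and 6.58, 11.6 and 8.67 CPM in the neonatal libraries, a log2 fold change of -1.25 ± 0.39 (SE, adjusted p from edgeR = 0.251). Raet1e and Raet1a were higher in all neonatal libraries but low, at most 0.201 CPM in the adult and 0.598 to 1.10 CPM in the neonatal libraries. In neonatal replicate 4 they had only 2 and 3 counts, where 1 count is 0.299 CPM. Reads of the Raet1 genes may be hard to assign, since the genes are near-identical copies. The annotated spans of Raet1b, Raet1c, Raet1d and Raet1e also lie within that of Raet1a. Raet1b and Raet1c had no counts, and how far assignment shaped these values was not tested.

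Of 11 phagocytosis signals all were tested, 5 were positive and the median was -0.15. Calr, the gene of calreticulin, which marks cells for engulfment, stood at 616, 816 and 1254 CPM in the adult and 1123, 1565 and 1277 CPM in the neonatal libraries, overlapping between the groups. Qpct, which encodes one of the enzymes that can modify the end of CD47, had 112, 68 and 24 counts in adult and 1, 10 and 17 counts in neonatal libraries. Qpctl, the gene of the related Golgi enzyme that modifies CD47 for binding to SIRPα, stood at 5.45, 12.7 and 18.6 CPM against 5.98, 38.9 and 35.2 CPM. Slamf7 and Lrp1, both linked to engulfment, had adult means of 0.659 and 52.6 CPM and neonatal means of 0.124 and 25.5 CPM and overlapped between the groups.

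Of 12 receptors for the ligands 7 were tested (median 0.28), and Pdcd1, Cd226 and Cd96 had no counts in any library. Havcr2, the gene of TIM-3, which is also known on leukaemia stem cells, was at 2.19, 1.38 and 0.499 CPM in the adult and 0, 0.609 and 0.889 CPM in the neonatal libraries. Tigit was at most 0.357 CPM. Of 18 regulators of the PD-L1 level 9 were positive (median -0.02). Among them Myc, a transcription factor reported to act on both Cd47 and Cd274, stood at 66.9, 264 and 195 CPM in the adult and 303, 488 and 381 CPM in the neonatal libraries, without overlap (1.16 ± 0.50 on the log2 scale, SE, edgeR adjusted p = 0.424). Irf1, the interferon-induced factor that acts on the Cd274 promoter, stood at 31.5, 43.4 and 24.7 CPM against 35.6, 60.2 and 62.4 CPM. Hif1a, the hypoxia factor, was at 89.4 to 135 CPM in the adult and 75.7 to 77.4 CPM in the neonatal libraries, again without overlap. Of all genes tested 19.6% did not overlap.

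For the 3 ligand genes with the smallest unadjusted p, the genes of most similar pattern were found by Pearson's r of log2 CPM over the 6 libraries among 9046 other genes with at least 5 CPM on average. They were P4ha1, Spns3 and Kcne3 for Tnfsf9 (r = 0.988, 0.988 and 0.985), Gna13, Cd300lf and Zfp292 for Cd86 (0.990, 0.988 and 0.987) and Gxylt1, Mmgt1 and Slk for Cd80 (0.996, 0.995 and 0.992). With 6 points that share the group difference and the depth of 1 library, such values are a description. Cd300lf, which encodes a myeloid inhibitory receptor, was at 64.5, 57.5 and 12.7 CPM in the adult and 2.99, 3.31 and 9.48 CPM in the neonatal libraries, with adult replicate 4 lowest in its group as for Cd86. Kcne3, a potassium channel subunit gene, was at 3.99, 9.57 and 1.82 CPM in the adult and 26.9, 26.6 and 61.3 CPM in the neonatal libraries, with adult replicate 2 and neonatal replicate 8 highest in their groups as for Tnfsf9. Among the ligand genes themselves Cd80 and Cd86 had r = 0.786 and Cd274 and Pdcd1lg2, which are neighbours on the chromosome, 0.399 over the same 6 libraries.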

How the data were processed

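PolyA-selected RNA from sorted mouse LICs was sequenced single-end with a library kit that does not mark strand, per the labels' protocols. The authors deposited read counts for each gene, not normalized, made with featureCounts 1.5.1 on primary alignments and a UCSC gene annotation of mm10 without a strand option, per the file headers. Trimmomatic, Bowtie, TopHat and DESeq2 are named without versions per the submitters' processing notes. Exon lengths are those of the same deposited table. Counts were tested here with edgeR 4.0.16 in R 4.3.3 (filterByExpr with a minimum count of 10, TMM, robust quasi-likelihood F test) with Benjamini-Hochberg adjustment over 13272 genes and a threshold of 0.05. The SE is the log2 fold change divided by the square root of F, and 95% intervals use it with the test's degrees of freedom, so both are approximate. CPM, and CPM per kilobase of exon, use TMM-scaled library sizes. Limits for a count of 0 use 3 counts and, like the Poisson intervals, cover counting error only. The ligand genes and all lists were chosen with earlier results of these data known. Named from each related list were up to 3 tested genes with the smallest unadjusted p and any gene called. From marker lists the most abundant genes were named. Added to these were Flt3, Kit, Cd34, Klrk1, Emr1, Cd163, Csf1r, C1qa, C1qb, C1qc, Mertk, Cd5l, Cxcr2, Mmp8 and markers at 0. Sirpa and Cmtm6 were called only without neonatal replicate 4. Qpctl, Calr, Gm11110, VISTA, Tnfrsf9, Cd200r1 and genes given as at or near 0 were added after their values were seen. Cadm1 (at most 1.46 CPM) was picked and is not described above. H60a and Ly6g had no row under these symbols. Alternatives were DESeq2 1.42.0, limma 3.58.1 voom without and with quality weights, edgeR without robust estimation, 3 further scalings, 2 further filters, thinning to the shallowest library and each library left out. The fits were tested on simulated counts with known changes.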

Additional observations from a re-analysis of the deposited data

How the results depend on the processing

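With 3932833 counts, neonatal replicate 4 limits what can be seen of low genes. On 6 libraries edgeR called 2 genes higher and 5 lower in neonatal LICs, none of them a ligand or a gene of the related lists. DESeq2 called 323 higher and 436 lower, with 1 ligand gene in each direction (Tnfsf9 and Cd86) and 3 related genes lower (Tnfsf13, Tnfsf13b and Ulbp1). Limma voom with quality weights called 537 and 519, with Tnfsf9 as 1 ligand gene higher. Of the related genes it called 1 higher (Raet1e) and 2 lower (Tnfsf13 and Tnfsf13b). DESeq2 with neonatal replicate 4 left out called 1740 and 1580, with 2 ligand genes higher (Tnfsf9 and Icosl), 1 lower (Cd86), and 7 related genes higher and 5 lower. The number of genes higher was 1 with RLE size factors, 1 with upper quartile scaling and 0 with thinning. Leaving out each library in turn, edgeR called 0 to 516 genes higher and 1 to 312 lower, 0 ligand genes, and 0 to 2 related genes higher, with 516, 312 and 2 without neonatal replicate 4. The cause of these differences was not tested. Tnfsf9, Cd80, Cd86, Icosl, Cd274, Cd47 and Lgals9 kept their direction in every alternative that gave a value. Cd80, Cd86 and Pdcd1lg2 gave none under the stricter filter or thinning, since they did not pass those filters. Pdcd1lg2 turned, with log2 fold changes from -0.52 to 0.50 over the libraries left out (-0.52 without adult replicate 4, -0.053 without neonatal replicate 4) and -0.052 in DESeq2 without neonatal replicate 4, and its highest value was 1.32 in limma voom. Pvr ranged from -0.093 without neonatal replicate 8 to 0.75 without neonatal replicate 4. No paired analysis was possible because the groups share only replicate number 4.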
